A study of Rattus norvegicus with 8 samples.

Results

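The 10 genes described here carry glucose into cells, commit it to glycolysis and move lactate between cells. They are the glucose transporters Slc2a1 and Slc2a3, the hexokinases Hk1 and Hk2, the phosphofructokinase Pfkp and its activator-making enzyme Pfkfb3, the lactate dehydrogenase subunits Ldha and Ldhb, and the monocarboxylate transporters Slc16a1 and Slc16a3. Members were taken by gene name from the spots that are not controls, and all 10 were found among 35250 names on the array, with 29 spots of 11 probes. The values came from the dentate gyrus (DG) of 8 ovariectomized (OVX) adult female Sprague-Dawley rats, all of which underwent status epilepticus (SE) after kainic acid. The groups are written COS (oil, n = 4) and CES (17β-estradiol, E2, given as 17β-estradiol benzoate, n = 4).

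Per the labels, rats of 150 to 200 g were ovariectomized 1 week before hormone treatment. CES rats received 4 doses of 2 µg E2 at intervals of 24 h, 2 before and 2 after SE, while COS rats received oil. Kainic acid was given to both groups at 16 mg/kg, and SE was stopped after 5 h with pentobarbital. The study's methods instead place the age at 8 to 9 weeks and all 4 hormone injections before SE, give another kainic acid dose and an end of SE by diazepam, and hold 2 different times of tissue collection, so the interval between seizures and collection is uncertain. OVX and SE were common to both groups, and rats without SE were not analysed here. Each of the 4 arrays on 1 slide carried a Cy3 and a Cy5 rat of the same group, with replicates 1 and 3 in Cy3 and replicates 2 and 4 in Cy5. Array and group therefore cannot be told apart for fixed array effects, while the dyes were balanced. A level below is the log2 of the background-subtracted signal relative to the median of the valid spots of that rat's channel, and a difference is CES minus COS on that log2 scale.

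Glucose enters brain capillary endothelium and astrocytes through the Slc2a1 product GLUT1 and enters neurons largely through the Slc2a3 product GLUT3. Hexokinase traps it as glucose-6-phosphate, and phosphofructokinase, driven by the fructose-2,6-bisphosphate that Pfkfb3 makes, sets the pace of the steps that follow. Subunits from Ldha favor the formation of lactate, those from Ldhb favor its use, and the Slc16a1 and Slc16a3 products MCT1 and MCT4 carry lactate across membranes, with MCT4 a characteristic exporter of glycolytic cells.

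After SE, E2 replacement was accompanied by lower Slc2a1, Slc16a3, Slc16a1, Slc2a3 and Ldha, whereas Hk1 (0.02), Pfkp (0.18) and Ldhb (0.53) did not pass the test. Of the 8 members with a spot valid in every rat, 5 were called lower and 0 higher by limma at an adjusted p under 0.05, where 28.3% of all 21372 genes tested were called lower and 5.79% higher. Their median difference was -0.66, against -0.25 over all genes. Scaling each channel over only the spots valid in all 8 rats moved that median over all genes from -0.25 to 0.15 and raised every difference by the same amount. Under that scaling 1 member, Slc2a1, was called lower (8.05% of all genes) and 1, Ldhb, was called higher (15.7% of all genes). The direction of each of these 6 genes was the same under both scalings. Each difference is therefore also set against the all-gene median, a distance that does not depend on how a whole channel is scaled. The remaining members, Hk2 and Pfkfb3, were dim and failed the filter through CES rats alone. Both were valid in all 4 COS rats, but Hk2 in 3 and Pfkfb3 in 2 CES rats.

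**Figure D1:**
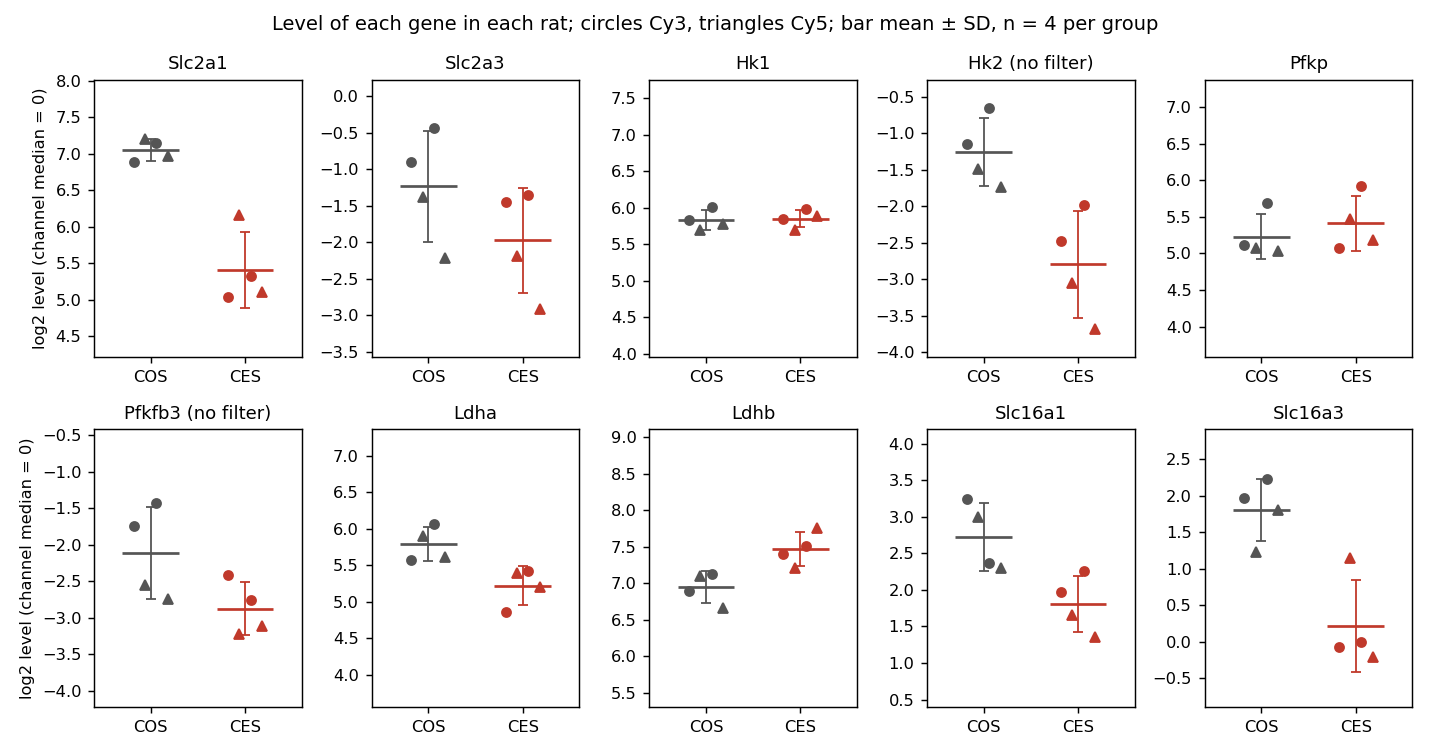
Level of each of the 10 genes in each rat, on a log2 scale on which the median valid spot of the rat's channel is 0; every panel spans the same range in log2. Circles are Cy3 rats and triangles Cy5 rats, and bars give mean ± SD of 4 rats per group; Slc2a1, Ldha, Slc16a1 and Slc16a3 have no CES rat as high as any COS rat, and Ldhb has no CES rat as low as any COS rat.

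The 60-base probes behind the lactate dehydrogenase comparison are shown because its outcome rests on these 2 stretches of transcript. They are printed as deposited, 5′ to 3′, with no base marked. In rn4, the build of the probe positions in the files, the Ldha probe lies at chr1:97407674-97407733 on the plus strand. The Ldhb probe covers chr4:180061921-180063949 on the minus strand, 2029 bases of genome for a 60-base probe, so it crosses an intron. The Slc2a1 probe lies at chr5:139718779-139718838, the Slc16a1 probe at chr2:199880104-199880163 and the Slc16a3 probe at chr10:110163119-110163178, all on the plus strand. The Slc2a3 probe lies at chr4:159214918-159214977 on the minus strand and the Pfkp probe at chr17:74822635-74822694 on the plus strand, and no rn4 exon annotation was used here.
Ldha probe: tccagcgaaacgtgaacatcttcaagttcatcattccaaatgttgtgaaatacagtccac
Ldhb probe: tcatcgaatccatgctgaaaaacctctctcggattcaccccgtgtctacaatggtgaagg

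Promoters are shown for Slc2a1, Slc16a1, Ldha and Slc16a3, which were called lower. The core ACGTG, found in many hypoxia response elements, is in capitals on either strand, and other forms of the core were not marked or counted. These promoters hold the 250 bases before the RefSeq start site, from RefSeq's GRCr8. ACGTG stood in the promoters of Slc2a1, Slc16a1, Ldha, Pfkfb3 and 1 of the 2 Hk1 entries, which is 5 of the 9 members with an entry (all but Slc2a3), and in 16.6% of 33469 promoters. The palindrome CACGTG, the E-box bound by Myc family factors, holds that core on both strands. It stood in 3 of the 9 (Slc16a1, Ldha and Pfkfb3) and in 5.59% of all promoters. A match describes letters and not an occupied site, and both motifs were chosen after these sequences had been seen.
Slc2a1 promoter, chr5:138002272-138002521, plus strand: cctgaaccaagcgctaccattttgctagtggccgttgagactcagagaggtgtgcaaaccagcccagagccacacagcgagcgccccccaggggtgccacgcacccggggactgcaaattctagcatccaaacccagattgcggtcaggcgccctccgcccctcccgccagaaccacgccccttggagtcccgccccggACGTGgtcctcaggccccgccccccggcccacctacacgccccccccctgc
Slc16a1 promoter, chr2:194812410-194812659, plus strand: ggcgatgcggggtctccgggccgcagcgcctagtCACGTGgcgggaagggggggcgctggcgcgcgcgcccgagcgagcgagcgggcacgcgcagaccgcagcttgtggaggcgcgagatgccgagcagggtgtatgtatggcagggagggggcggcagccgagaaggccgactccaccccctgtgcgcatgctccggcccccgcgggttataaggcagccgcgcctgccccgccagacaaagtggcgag
Ldha promoter, chr1:106507842-106508091, plus strand: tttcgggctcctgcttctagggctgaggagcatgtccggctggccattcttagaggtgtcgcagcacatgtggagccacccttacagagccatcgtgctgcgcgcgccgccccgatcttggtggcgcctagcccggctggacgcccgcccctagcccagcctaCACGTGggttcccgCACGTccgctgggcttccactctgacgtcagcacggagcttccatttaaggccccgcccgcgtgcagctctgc
Slc16a3 promoter, chr10:106712078-106712327, plus strand: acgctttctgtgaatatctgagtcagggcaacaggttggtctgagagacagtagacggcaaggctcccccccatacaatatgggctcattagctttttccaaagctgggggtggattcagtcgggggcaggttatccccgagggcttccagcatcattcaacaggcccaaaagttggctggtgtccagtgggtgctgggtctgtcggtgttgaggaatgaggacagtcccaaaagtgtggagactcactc

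Slc2a1, the transporter of the blood-brain barrier, showed the largest difference of the 8 tested members. Its levels in COS replicates 1 to 4 were 6.88, 7.19, 7.15 and 6.97, and in CES replicates 1 to 4 they were 5.03, 6.16, 5.33 and 5.11. All CES rats lay below all COS rats, with CES replicate 2 the nearest to them. The difference was -1.64 ± 0.24 (SE, n = 4 per group), a 3.12-fold lower level (limma adjusted p = 0.00374), and -1.39 against the all-gene median. It was -1.84 between the Cy3 rats and -1.45 between the Cy5 rats. Under scaling over shared spots it was -1.24 (adjusted p = 0.0193), and the call was kept under 22 of 23 alternatives (adjusted p from 3.79e-05 to 0.0799), the exception being the methods' t-test. Slc2a1 has 10 copies of its probe on the array. The SD between those spots within a rat ran from 0.13 to 0.27 log2, against an SD of 0.15 between COS rats and 0.52 between CES rats.

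Slc2a3, the neuronal transporter, was measured near background, and the scanner software marked its probe as well above background in 2 rats of each group. Levels were -0.90, -1.38, -0.44 and -2.21 in COS and -1.45, -2.18, -1.36 and -2.91 in CES. The groups overlapped, also among the Cy5 rats alone, and the difference was -0.73 between Cy3 rats and -0.75 between Cy5 rats. The difference was -0.74 ± 0.24 (limma adjusted p = 0.0370), which is -0.48 against the all-gene median. It was not called under scaling over shared spots (-0.34, adjusted p = 0.260; 0.0124 to 0.802 over 21 alternatives, 8 of which called it).

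Hk1, the constitutive brain hexokinase, did not pass the test. Levels ran from 5.70 to 6.02 in COS and from 5.69 to 5.99 in CES. The difference was 0.02 ± 0.15 (limma adjusted p = 0.921) and 0.28 against the all-gene median, and under scaling over shared spots it was 0.42 (adjusted p = 0.0887; 0.0834 to 0.997 over 23 alternatives, none of which called it). Its 2 probes gave differences of 0.09 and -0.29, neither called. Hk2, the inducible hexokinase, had no spot valid in all 8 rats and cleared the software's stricter background mark in 3 rats of COS and 1 of CES. Without the filter, its levels were -1.14, -1.49, -0.65 and -1.74 in COS and -2.47, -3.05, -1.98 and -3.68 in CES. No CES rat reached the lowest COS rat, and the difference of -1.54 ± 0.26 was called (limma adjusted p = 0.0340), where 7.93% of the genes tested without the filter were called lower. Subtracted signals this close to background carry large relative error on a log scale.

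Pfkp, the platelet-type phosphofructokinase that is abundant in brain, did not pass the test. Levels were 5.12, 5.08, 5.70 and 5.03 in COS and 5.08, 5.47, 5.93 and 5.18 in CES. COS replicate 3 stood above the other COS rats, and the groups overlapped. The difference was 0.18 ± 0.22 (limma adjusted p = 0.550) and 0.44 against the all-gene median. Under scaling over shared spots it was 0.58 (adjusted p = 0.0689), and none of 23 alternatives called it (adjusted p from 0.0689 to 0.890). Pfkfb3 cleared that mark in 1 rat of each group. Without the filter its levels were -1.75, -2.55, -1.42 and -2.74 in COS and -2.41, -3.22, -2.75 and -3.11 in CES, with overlapping groups and a difference of -0.76 ± 0.21 (limma adjusted p = 0.0572).

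Ldha, the subunit of the lactate-forming isoenzyme, was lower in CES by a small margin. Levels were 5.58, 5.91, 6.07 and 5.62 in COS and 4.86, 5.40, 5.43 and 5.20 in CES. The groups did not overlap, and the highest CES rat stood just below the lowest COS rat. The difference was -0.57 ± 0.20 (limma adjusted p = 0.0470), a 1.49-fold lower level, and -0.32 against the all-gene median. Scaling over shared spots ended the call (-0.17, adjusted p = 0.423; 0.0132 to 0.773 over 23 alternatives, 8 of which called it). Its 10 spots varied within a rat with an SD of 0.16 to 0.25 log2, close to the SD of 0.23 between COS and 0.26 between CES rats.

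Ldhb, the subunit of the lactate-using isoenzyme, differed in the other direction without passing the test. Levels were 6.89, 7.10, 7.12 and 6.65 in COS and 7.40, 7.21, 7.51 and 7.76 in CES. The lowest CES rat exceeded the highest COS rat, a pattern found in 1.61% of all genes tested. Every CES rat lay below every COS rat in 19.8% of genes, as in 4 of the 8 tested members. These shares hold for each channel scaled over its own valid spots, where the all-gene median lies below 0. They depend on that scaling and were not counted under scaling over shared spots. The difference was 0.53 ± 0.19 (limma adjusted p = 0.0530), just missing the threshold, and 0.78 against the all-gene median. Scaling over shared spots brought it to 0.93 (adjusted p = 0.0227; 0.00670 to 0.461 over 23 alternatives, 8 of which called it).

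**Figure D2:**
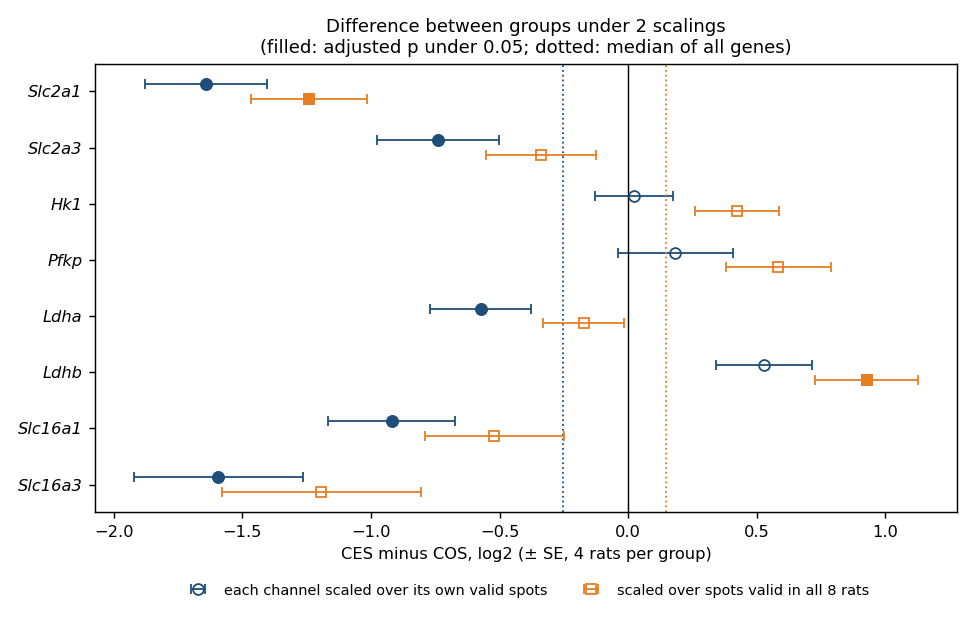
Difference between CES and COS for the 8 tested genes on the log2 scale with its standard error (4 rats per group), with each channel scaled over its own valid spots (circles) or over the spots valid in all 8 rats (squares); filled symbols have an adjusted p under 0.05 and dotted lines mark the median of all genes, -0.25 and 0.15. Slc2a1 is filled under both scalings, and Ldhb is filled only under the second.

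The ratio of 2 genes within a rat does not depend on how its channel is scaled, although its absolute value depends on the probes. The log2 ratio of Ldha over Ldhb was -1.31, -1.19, -1.06 and -1.03 in COS and -2.54, -1.81, -2.08 and -2.56 in CES. All CES rats had a lower ratio than all COS rats, with CES replicate 2 again the nearest. The means were -1.15 ± 0.13 and -2.25 ± 0.37 (SD, n = 4), a difference of -1.10 (two-sided exact permutation test, p = 0.0286, the smallest p that 4 against 4 allows). Adjusted over the 3 pairs that could be formed with the filter it was 0.0857 in that exact permutation test, which misses the threshold.

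The other pairs formed with the filter overlapped between the groups. Slc2a1 over Slc2a3 differed by -0.90 (exact permutation test, p = 0.200, adjusted p = 0.229) and Slc16a3 over Slc16a1 by -0.67 (exact permutation test, p = 0.229, adjusted p = 0.229). Without the filter, Hk2 over Hk1 differed by -1.56 with no overlap (exact permutation test, p = 0.0286, adjusted over 5 pairs 0.0714). Only Ldha over Ldhb shared that smallest p, so the adjustment over 5 pairs could not reach the threshold either. Pfkfb3 over Pfkp differed by -0.94 (exact permutation test, p = 0.0857, adjusted p = 0.143). With the mean of each dye subtracted, Slc2a1 over Slc2a3 also reached the smallest p (permutation test, adjusted p = 0.0429). That permutation ran over all rats and not within each dye, so its p is not exact and is not counted as a call.

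**Figure D3:**
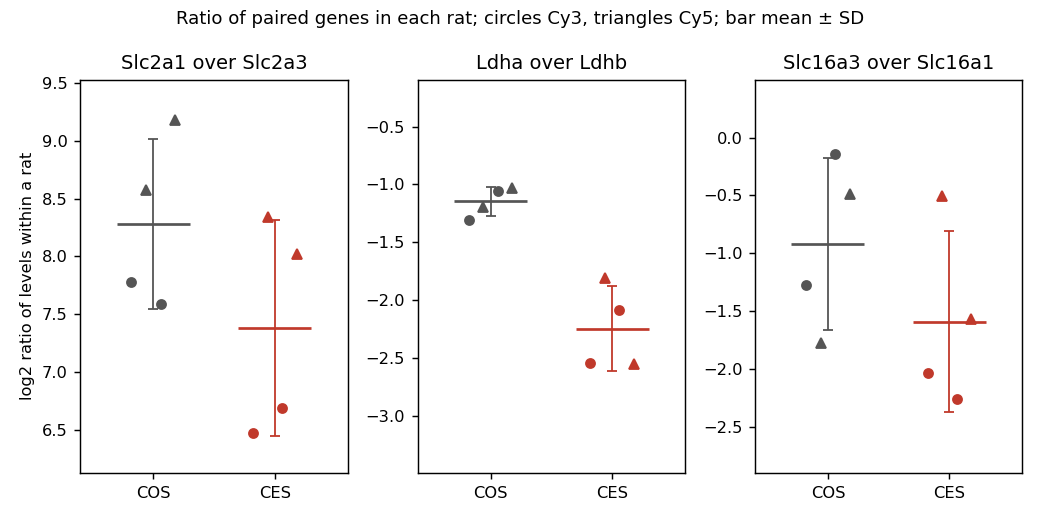
Log2 ratio of the levels of paired genes within each rat; circles are Cy3 and triangles Cy5 rats, and bars give mean ± SD of 4 rats per group. The ratio of Ldha to Ldhb separates the groups, from -1.31 to -1.03 in COS and from -2.56 to -1.81 in CES, while the other ratios plotted overlap.

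Both monocarboxylate transporters were lower in CES. Slc16a1 levels were 3.24, 3.00, 2.37 and 2.30 in COS and 1.97, 1.66, 2.25 and 1.36 in CES. The lowest COS and the highest CES rat nearly touched. The difference was -0.92 ± 0.25 (limma adjusted p = 0.0195), a 1.89-fold lower level, and -0.67 against the all-gene median. Scaling over shared spots ended the call (-0.52, adjusted p = 0.180; 0.0114 to 0.351 over 23 alternatives, 11 of which called it).

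Slc16a3, the lactate exporter, differed nearly as much as Slc2a1. Levels were 1.97, 1.23, 2.23 and 1.81 in COS and -0.07, 1.15, -0.01 and -0.21 in CES. The other CES rats lay close together, and CES replicate 2 stood apart from them, just below the lowest COS rat. The difference was -1.59 ± 0.33 (limma adjusted p = 0.00736), a 3.02-fold lower level, and -1.34 against the all-gene median. It was -2.14 between Cy3 rats, -1.05 between Cy5 rats and -1.97 without CES replicate 2. Under scaling over shared spots it was -1.19 (adjusted p = 0.0565), and 16 of 23 alternatives called it (adjusted p from 6.32e-05 to 0.0953).

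Of the further genes of the phosphofructokinase and lactate transport steps, Pfkl, Pfkm, Pfkfb2, Slc16a7 and Bsg did not pass the test. Pfkl and Pfkm, the liver and muscle phosphofructokinases, differed by 0.62 ± 0.23 (limma adjusted p = 0.0629) and 0.27 ± 0.20 (adjusted p = 0.317). Pfkfb2, a further enzyme that makes the activator of phosphofructokinase, differed by -0.05 ± 0.16, and its sign turned under scaling over shared spots (0.35). Slc16a7, the neuronal lactate importer MCT2, differed by 0.12 ± 0.15 (limma adjusted p = 0.550) and Bsg, the chaperone of MCT1 and MCT4, by 0.26 ± 0.19 (adjusted p = 0.297). Scaling over shared spots brought calls to Pfkl (1.02, adjusted p = 0.0259), Slc16a7 (0.52, adjusted p = 0.0390) and Bsg (0.66, adjusted p = 0.0316), all higher; over the alternatives their adjusted p ran from 0.00395 to 0.300, from 0.0365 to 0.907 and from 0.0316 to 0.852.

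A wider list of 96 genes of glucose handling and its regulators held 84 that could be tested. Of these, 4 were called higher (4.76%) and 21 lower (25.0%), with a median difference of -0.19, against 5.79%, 28.3% and -0.25 over all genes. Of 17 further glycolytic enzymes tested, 0 were called lower and 1 higher, with a median difference of 0.12, and the aldolase Aldoc was the one called (0.92 ± 0.28, limma adjusted p = 0.0297). The enzymes from Gpi to Pkm, Gapdh among them, otherwise differed by -0.30 to 0.62. Scaling over shared spots gave 7 of the 17 called higher and 0 lower, where 15.7% and 8.05% of all genes were.

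Beyond glycolysis, the 8 largest differences among wider genes called without overlap were all lower in CES and lay among pyruvate entry genes, hypoxia and energy regulators and glycogen genes. Pdk4, which inactivates pyruvate dehydrogenase, ran from 0.67 to 2.23 in COS and from -0.65 to 0.10 in CES, a difference of -1.89 ± 0.32 (limma adjusted p = 0.00458). Pdp1, the phosphatase that reactivates the same enzyme, ran from 3.66 to 4.53 in COS and from 2.06 to 3.24 in CES, a difference of -1.51 ± 0.29 (limma adjusted p = 0.00624). So 1 inhibitor and 1 activator of that step were lower, while Pdk1, Pdk2, Pdk3 and Pdp2 were tested and not called. Of 14 tested pyruvate entry genes, 3 (Pdk4, Pdp1 and Pdhx) were called lower and 0 higher. That share of lower calls lies below the 28.3% of all genes. Scaling over shared spots gave 2 lower and 3 higher (8.05% and 15.7% of all genes).

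Among 18 hypoxia and energy regulators, 8 were called lower and 1 higher, with a median difference of -0.58 (28.3% and 5.79% of all genes). Hif1a, the oxygen-regulated subunit of hypoxia-inducible factor 1, ran from 4.42 to 5.30 in COS and from 3.20 to 3.82 in CES, a difference of -1.40 ± 0.21 (limma adjusted p = 0.00393). Myc, a transcription factor that binds E-boxes of glycolytic genes, differed most, by -2.73 ± 0.41, from 3.83 to 4.67 in COS and from 0.80 to 2.87 in CES (limma adjusted p = 0.00390). Adm, which encodes the vasodilator adrenomedullin and is induced by low oxygen, differed by -2.01 ± 0.24 (limma adjusted p = 0.00308). Vhl and Hif1an, which restrain hypoxia-inducible factor 1, were lower too, by -1.07 ± 0.19 and -1.07 ± 0.27 (limma adjusted p = 0.00518 and 0.0160). All 5 had no CES rat as high as any COS rat, which was a condition of their being named. Over all genes, 19.8% had every CES rat below every COS rat. Scaling over shared spots kept the calls of Hif1a, Myc, Adm and Vhl as well as those of Pdk4 and Pdp1, and ended that of Hif1an (-0.67, adjusted p = 0.101; 0.000457 to 0.466 over its alternatives). Over the whole list that scaling gave 4 genes called lower and 2 higher (8.05% and 15.7% of all genes).

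Glycogen phosphorylases went both ways. Pygl, the liver form, was lower by -1.37 ± 0.30 (limma adjusted p = 0.00885), a call that scaling over shared spots ended (-0.97, adjusted p = 0.0526; 0.00146 to 0.285 over its alternatives), while the brain form Pygb and the muscle form Pygm were higher by 0.72 ± 0.19 and 0.99 ± 0.29 (limma adjusted p = 0.0195 and 0.0263). Bnip3, a mitophagy receptor known as a hypoxia target, was the further gene called higher (0.59 ± 0.19, limma adjusted p = 0.0411). The groups overlapped for Aldoc, Pygb, Pygm and Bnip3, and these 4 risers are named because they were few, after their values were seen. With the replicate number as a block, Aldoc (adjusted p = 0.0624) and Pygm (adjusted p = 0.0559) were no longer called; over all their alternatives the adjusted p ran from 0.000927 to 0.154 and from 0.000436 to 0.144. Of the remaining lists, 3 of 8 other glucose transporters, 1 of 4 regulators of phosphofructokinase flux, 1 of 3 further lactate transport genes and 4 of 6 pentose phosphate genes were called lower and 0 higher, beside 28.3% and 5.79% of all genes. Under scaling over shared spots 0 genes of these lists were called lower. Called higher were 2 glucose transporters and 2 lactate transport genes, beside 8.05% lower and 15.7% higher over all genes.

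**Figure D4:**
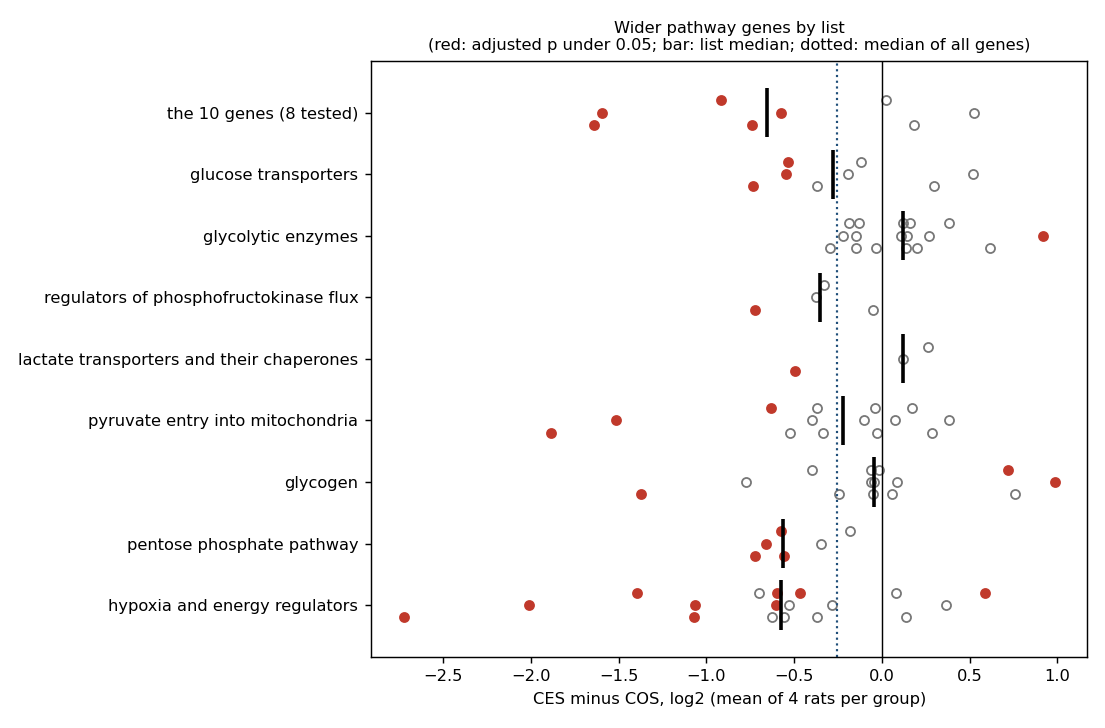
Difference between CES and COS on the log2 scale for each tested gene of the wider pathway, by list; red points have an adjusted p under 0.05, black bars are list medians and the dotted line is the median of all genes, -0.25. The glycolytic enzymes center on 0.12 with 1 call, and the points farthest to the left are Myc (-2.73), Adm (-2.01) and Pdk4 (-1.89).

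These are bulk tissue values, so fewer cells of a type and less RNA per cell cannot be told apart, and markers of other cells moved as well. Of 10 tested endothelial markers, 5 were called lower and 2 higher, with a median difference of -0.65, where 28.3% and 5.79% of all genes were. This balance turned to 1 lower and 3 higher under scaling over shared spots (8.05% and 15.7% of all genes). Cldn5, a tight junction gene of the capillary wall, differed by -0.25 ± 0.17 (limma adjusted p = 0.276), and Flt1, an endothelial growth factor receptor, by -1.04 ± 0.23 (limma adjusted p = 0.00957), a call that scaling over shared spots ended (-0.64, adjusted p = 0.0696; 0.00180 to 0.553 over its alternatives). The summed level of the endothelial list ran from 6.03 to 6.58 in COS and from 5.65 to 6.25 in CES. Of 6 pericyte and smooth muscle markers 4 were called lower and 1 higher, with summed levels from 5.81 to 6.54 in COS and from 4.21 to 5.31 in CES, and scaling over shared spots left 2 lower and 1 higher.

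Of 9 astrocyte markers 2 were called in each direction (0 lower and 2 higher under scaling over shared spots), with summed levels from 7.52 to 7.65 in COS and from 7.28 to 7.87 in CES. Gfap, the filament of reactive astrocytes, differed by -1.19 ± 0.44 (limma adjusted p = 0.0618), with CES rats from 3.57 to 5.66, and the astrocytic water channel Aqp4 differed by 0.04 ± 0.18. Of 10 microglial markers 5 were called lower and 1 higher (1 and 1 under scaling over shared spots), and of 6 general neuron markers 1 in each direction (0 lower and 2 higher). Of 6 dentate granule cell markers, Prox1 had no spot valid in all rats. Of the other 5, 3 were called lower and 0 higher (0 and 0 under scaling over shared spots). Beside these counts, 28.3% of all genes were called lower and 5.79% higher, and 8.05% and 15.7% under scaling over shared spots. Ttr, the most abundant choroid plexus transcript, ranged from 3.57 to 9.22 in COS and from 3.80 to 7.55 in CES, a spread within each group that exceeds the difference between them. The part of any of these cells in the differences of the 10 genes was not tested. Without CES replicate 2, the rat nearest to COS for Slc2a1, Slc16a3, Adm and Myc, the same 5 members were called lower and Ldhb was called higher (32.8% and 8.7% of all genes).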

How the data were processed

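RNA from the DG of 8 rats was measured on 4 Agilent 2-colour arrays, 1 rat per channel. Per the labels, the scanner files were extracted with Agilent Feature Extraction 10.7.3.1. The deposited intensity columns (mean signal and median local background) had not been normalized by the authors. The deposited log2 table equals the log2 of each channel's background-subtracted median spot signal, not the mean signal, relative to its own median. It was used as an alternative. Probes were named through RefSeq accessions (17512 of 41012 probes) and otherwise by the name in the files.

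Validity required a foreground of 2 or more times the local background. That held for 32381 to 38553 of 43379 spots per COS rat and for 30690 to 35352 per CES rat. Signals were divided by the channel's median over valid spots, averaged per gene (spots valid in all 8 rats only) and log2-transformed. No spot was saturated, and spots that the software marked as outliers were kept. The groups were compared with limma 3.58.1 (R 4.3.3, statmod 1.5.0), with dye as a fixed term and array as a random block (correlation -0.01), two-sided, with Benjamini-Hochberg adjustment over 21372 genes and a threshold of 0.05. The median SE was 0.20 log2, and the 8 rats limit the precision. The array correlation depended on the processing. It was 0.28 with scaling over shared spots, 0.57 with normexp and -0.50 with no dye term. The fit was also run on simulated data of 21372 genes, 200 of them changed. There 14% of log2 changes of 1 and 59% of log2 changes of 2 were recovered, and 3 of 76 calls were false. The data held far more calls (1238 higher and 6054 lower), and their dependence on channel scaling was not simulated. These rates therefore do not describe the calls made here.

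Same-numbered rats of the groups deviated together over all genes (r from 0.21 to 0.34), but the numbers also carry the dye. With dye means removed r ran from -0.28 to 0.08. Removing group and dye means lowers r also for unrelated rats, so these values cannot settle whether the numbers pair rats. The replicate number as a block was run as an alternative. Ratios of paired genes were tested by exact permutation, two-sided, in R, except that the permutation with dye means subtracted was not exact. Summaries and figures were made in Python 3.11.15 (numpy 2.4.6, pandas 2.3.3, matplotlib 3.10.9).

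Singly named are all 10 members; from the wider list up to 8 genes with the largest difference among those called without overlap, and Slc16a7, Pfkl, Pfkm, Pfkfb2 and Bsg; and the markers Cldn5, Flt1, Gfap, Aqp4 and Ttr. Members, lists, markers and tests were chosen with earlier results of these data known. Alternatives covered background correction, normalization, the filter, the model terms, the probe rule, the methods' t-test, the deposited table, leaving out each rat and, chosen after seeing the data, leaving out spots marked as outliers. Rats without SE were not analysed here. The p-values set the difference between groups against the spread among these 8 rats. They cannot separate a fixed array effect from the group. Marker lists not described singly in the text gave, higher and lower, 1 and 0 of 8 oligodendrocyte and 0 and 0 of 8 choroid plexus genes tested. They gave 0 and 0 of 3 red blood cell and 0 and 1 of 1 neutrophil and monocyte genes tested. Over all genes, 5.79% were called higher and 28.3% lower.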

Additional observations from a re-analysis of the deposited data

Results flagged for a closer look

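With 4 rats per group, a single rat was tested against the range of its group for each named gene and pair ratio, in 66 groups, of which chance flags about 1 in 20. Of these, 3 stood out, about the number that rate gives. The level of Slc16a3 in CES replicate 2 was 1.15, with the other CES rats from -0.21 to -0.01. The level of Pfkp in COS replicate 3 was 5.70, with the other COS rats from 5.03 to 5.12. The level of Bnip3 in CES replicate 2 was 4.47, with the other CES rats from 5.12 to 5.21. Without CES replicate 2, Slc16a3 remained called lower and Bnip3 remained called higher.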

How the results depend on the processing

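The direction of Slc2a1, Slc2a3, Pfkp, Ldha, Ldhb, Slc16a1 and Slc16a3 was the same under every alternative run, and of the 182 alternative values for single members 123 kept side and direction, 48 lost the call, 8 gained one and 3 turned sign, all 3 of Hk1 (0.02; -0.037 to 0.063 leaving out a rat, below 0 without COS replicate 1, CES replicate 3 or CES replicate 4).

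The number of members called lower, 5, was 1 with normexp, with loess and Aquantile, with quantile normalization, with scaling over shared spots and with the deposited log2 table, 3 with the processed signal and with no filter, 2 with the 3-fold foreground filter and with spots well above background, 0 with the methods' t-test, and 2 to 5 over the fits leaving out a rat (2 without COS replicate 1, 2 or 3 or CES replicate 1). The number called higher, 0, was 1, always Ldhb, with loess and Aquantile, quantile, scaling over shared spots, the deposited table, both stricter filters and no dye term, and 0 to 1 without a rat.

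Over all genes, 1238 were called higher and 6054 lower, 17.0% higher among calls. Counts of higher and lower were 3352 and 1720 (66.1% higher) with scaling over shared spots, 3045 and 1896 with loess and Aquantile, 3059 and 2226 with quantile, 3285 and 1936 with the deposited table, 2227 and 880 with spots well above background, 123 and 454 with normexp, 421 and 2789 with no filter, and 0 and 0 with the methods' t-test (6114 genes at an unadjusted p under 0.05). The 3-fold foreground filter gave 2835 lower. Leaving out a rat gave 262 to 1860 higher and 932 to 7029 lower, with the fewest without COS replicate 3.

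In the wider pathway, 4 higher and 21 lower became 19 and 6 with scaling over shared spots, 20 and 6 with loess and Aquantile, 16 and 6 with quantile, 19 and 7 with the deposited table, 12 and 5 with spots well above background, 0 and 3 with normexp, 0 and 8 with no filter and 0 and 0 with the methods' t-test. The 3-fold foreground filter gave 9 lower, and leaving out a rat gave 0 to 7 higher and 4 to 24 lower. Within each dye, every COS rat had more valid spots than every CES rat. In Cy3 these were 37716 and 38553 in COS against 33483 and 35352 in CES. In Cy5 they were 34759 and 32381 in COS against 31826 and 30690 in CES. A channel's own median was thus taken over a larger set of spots in COS. The part of this in the moved counts of calls was not tested.

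The replicate number as a block left the same 5 members called lower, and gave 1077 genes higher and 6147 lower. With dye means subtracted, the adjusted p of Ldha over Ldhb (-1.10) and of Slc2a1 over Slc2a3 (-0.90) was 0.0429 by permutation. That permutation ran over all rats and not within each dye, so these p-values are not exact and are not counted as calls. Leaving out a rat, the pair differences ran from -1.25 to -0.997 for Ldha over Ldhb, from -1.22 to -0.60 for Slc2a1 over Slc2a3 and from -1.04 to -0.41 for Slc16a3 over Slc16a1. Leaving out outlier-marked spots called the same 5 members.

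Signs turned for uncalled genes only. Pfkfb2 (-0.05) was 0.10 with the processed signal, 0.32 with loess and Aquantile, 0.34 with quantile, 0.35 with scaling over shared spots, 0.20 with the 3-fold foreground filter, 0.53 with spots well above background, 0.077 with its brightest probe, 0.30 with the deposited table and -0.12 to 0.027 leaving out a rat (above 0 without COS replicate 4 or CES replicate 2). Cldn5 (-0.25) was 0.057 with loess and Aquantile, 0.056 with quantile, 0.15 with scaling over shared spots, 0.20 with spots well above background and 0.080 with the deposited table. Leaving out a rat, Aqp4 (0.04) ran from -0.071 to 0.13, below 0 without COS or CES replicate 3, and Ttr (0.52) from -0.76 without COS replicate 4 to 1.52. Signal near background limits Slc2a3, Hk2 and Pfkfb3.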
